A study of Mus musculus with 12 samples.

Results

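The genes described here encode 6 enzymes of the later and auxiliary steps of fatty acid beta-oxidation, Decr1, Eci1, Eci2, Echs1, Hadh and Acaa2. They were chosen by name, with earlier results of these data known, as 6 of the 21887 protein-coding genes of the gene table. Counts at the members set beside shares over all genes or regions are therefore descriptions and no test. Every peak within each gene body and 10 kb on each side was followed heart by heart. Merged over the 6 hearts, the windows held 23 of the 79241 regions of the series. Acetylation of histone H3 at lysine 27 (H3K27ac), a mark of active promoters and enhancers, had been profiled by chromatin immunoprecipitation and sequencing of whole mouse hearts at postnatal day 0. The edKO group was 3 hearts (numbered 1, 3 and 6) of newborns that lack both Rxra and Rxrb in cardiomyocytes, the genes of 2 retinoid X receptors. The WT group was 3 wild-type hearts (numbered 1, 3 and 4) of the same age. The driver of the deletion is not given in the sources used here, so which other cell types of an edKO heart keep both genes was not known. The title of the series places the work in the metabolic maturation of the newborn heart.

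Beta-oxidation shortens an activated fatty acid in mitochondria by repeating dehydrogenation, hydration, a second dehydrogenation and thiolysis, and releases acetyl-CoA at each turn. Unsaturated fatty acids carry double bonds that the core cycle cannot use, so isomerases and a reductase first move or remove them. The heart turns to fatty acids as its main fuel after birth. Retinoid X receptors pair with other nuclear receptors, among them the PPARs, which are known activators of genes of this pathway.

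Of the 6 enzymes, Echs1 catalyses the hydration, Hadh the second dehydrogenation and Acaa2 the thiolysis that ends each turn. Eci1 and Eci2 are isomerases that shift a double bond, and Decr1 is the reductase that deals with conjugated double bonds. For 4 of the 6 a RefSeq promoter of build GRCm38.p6 was at hand, running from 250 bases before to 50 bases after the start. The 3 printed here lie under the H3K27ac regions at the starts of Echs1, Hadh and Eci2, which were called in all 6 hearts. Each is written 5′ to 3′ along the gene, which lies on the minus strand, at chr7:140116372-140116671 for Echs1, chr3:131272052-131272351 for Hadh and chr13:34994095-34994394 for Eci2. Capitals mark 3 motifs on either strand, the nuclear receptor half-site AGGTCA, the GC box GGGCGG and the CCAAT box CCAAT.
Echs1: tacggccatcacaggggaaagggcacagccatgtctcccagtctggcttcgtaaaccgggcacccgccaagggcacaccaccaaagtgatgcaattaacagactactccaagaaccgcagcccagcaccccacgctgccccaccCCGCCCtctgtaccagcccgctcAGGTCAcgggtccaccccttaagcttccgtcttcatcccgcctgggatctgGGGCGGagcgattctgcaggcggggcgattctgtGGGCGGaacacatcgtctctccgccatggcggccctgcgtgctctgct
Hadh: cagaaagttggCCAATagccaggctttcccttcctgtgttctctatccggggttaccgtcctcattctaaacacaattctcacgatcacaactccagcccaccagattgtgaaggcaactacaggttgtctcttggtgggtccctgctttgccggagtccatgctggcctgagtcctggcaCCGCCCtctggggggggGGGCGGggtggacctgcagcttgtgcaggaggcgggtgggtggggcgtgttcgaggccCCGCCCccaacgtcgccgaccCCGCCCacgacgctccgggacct
Eci2: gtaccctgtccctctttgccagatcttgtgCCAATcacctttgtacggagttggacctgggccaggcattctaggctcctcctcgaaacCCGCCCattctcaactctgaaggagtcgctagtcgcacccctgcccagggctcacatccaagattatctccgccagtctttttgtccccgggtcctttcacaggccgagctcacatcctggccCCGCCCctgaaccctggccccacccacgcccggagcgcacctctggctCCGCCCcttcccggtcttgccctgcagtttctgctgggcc

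The Echs1 promoter held 1 half-site, at position -83 relative to the start, and 3 GC boxes. The Hadh promoter held 4 GC boxes and 1 CCAAT box, and the Eci2 promoter 3 GC boxes and 1 CCAAT box. The Eci1 promoter held 1 GC box. Among all 32851 promoters of the table, 16.3% held the half-site, 35.7% the GC box and 37.4% the CCAAT box. The element of 2 half-sites in the same orientation 1 base apart, the form that PPAR and RXR pairs are known to bind, was in 0 of these 4 promoters and in 0.0396% of all. Only exact letters were searched, and the absence of so rare an element from 4 promoters is uninformative. These matches describe letters in this window and do not show binding.

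The 6 lists differed in length within both genotypes. They held 47971, 48274 and 67706 regions in edKO hearts 1, 3 and 6, against 57976, 62882 and 66325 in WT hearts 1, 3 and 4. Covered length was 47.9 to 66.6 Mb in edKO hearts and 59.1 to 68.3 Mb in WT hearts, lowest in edKO 3. Covered lengths below were therefore tested as log2(bp + 200), centred per heart, which understates the change of short lengths. The mark does not check the deletion, and Rxra was covered in every heart, over 8682 to 18432 bp in edKO hearts and 11157 to 18868 bp in WT hearts. All 10 cardiomyocyte marker loci were covered in every heart, over 153 to 203 kb summed in edKO hearts and 196 to 200 kb in WT hearts. The 8 fibroblast loci summed to 37.9 to 42.7 kb in edKO hearts and 27.9 to 54.3 kb in WT hearts, and the 8 endothelial loci to 65.8 to 99.6 kb in edKO hearts and 77.2 to 93.4 kb in WT hearts. Of 6 leukocyte loci, 3 were covered in every heart and Ptprc and Adgre1 in none, with a sum of 12.3 to 17.3 kb in edKO hearts and 14.0 to 18.0 kb in WT hearts. Of 5 erythroid loci, 1 was covered in every heart and Hba-a1, Alas2 and Gata1 in none, with a sum of 1.51 to 3.25 kb in edKO hearts and 2.55 to 3.43 kb in WT hearts. Of 5 liver loci, 2 were covered in every heart and Alb and Serpina1a in none, with a sum of 2.93 to 4.61 kb in edKO hearts and 2.97 to 4.82 kb in WT hearts. No marker locus that was tested passed the threshold. In whole hearts, fewer cells of a type and less mark per cell cannot be told apart.

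At the level of the whole locus, Decr1 was the member that fell, to less marked length in edKO hearts than in WT hearts. Covered length averaged 1305 ± 177 bp in edKO hearts and 3500 ± 402 bp in WT hearts (SD, n = 3 each), which is 37.3% of the WT mean. Before centring, Eci2, Hadh and Acaa2 also separated the genotypes with edKO hearts lower, at 55.3%, 65.2% and 68.4% of the WT means. They did not pass the test. Eci1 and Echs1 overlapped between the genotypes before centring, at 84.1% and 105% of the WT means. No share over all loci is given for separation before centring, here and at each gene below, so it describes these loci alone. The limma test called 1 of the 6 members lower and 0 higher, while over all 14317 loci tested it called 15 lower, or 0.105%, and 0 higher. At an unadjusted p under 0.05, limma gave 663 loci lower and 284 higher, and without centring 598 lower and 27 higher, with a median over all loci of -0.05. The log2 difference was below 0 at 5 of the 6 members, with a median of -0.49, and at 5949 of all 14317 loci, with a median of 0.03. After centring, the edKO values were below every WT value at 5 of the 6 members, all but Echs1. The same held at 825 of the 14317 loci, or 5.76%. The 6 members passed the filter on low values. The smallest exact two-sided permutation p that 3 edKO and 3 WT hearts allow at a single locus is 0.1, so the fit across all loci was used. What part list length or the mix of cell types has in these differences was not tested.

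**Figure D1:**
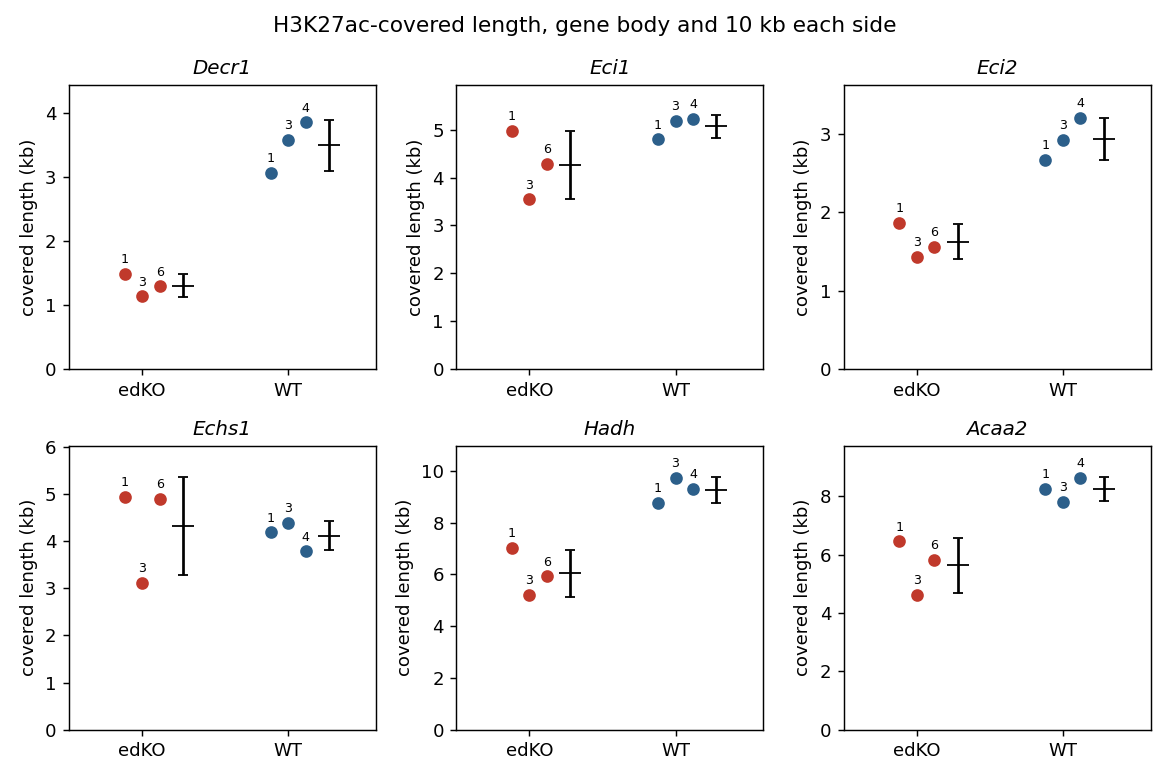
Length covered by called H3K27ac regions (kb) at each gene body with 10 kb on each side, 1 panel per gene, with 1 point per heart and the mean and SD of 3 edKO hearts left of 3 WT hearts. The points, which are lengths before centring, do not overlap between the genotypes for Decr1, Eci2, Hadh and Acaa2, while those of Eci1 and Echs1 do.

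The enzymes of the core cycle come first. Echs1, the hydratase, lies at chr7:140105710-140116421 and had 4948, 3113 and 4905 bp covered in edKO hearts 1, 3 and 6, against 4190, 4386 and 3784 bp in WT hearts 1, 3 and 4. The genotypes overlapped, with both the highest and the lowest value in edKO hearts. The log2 difference was 0.13 (SE 0.11), with a limma adjusted p of 0.874. Its window is shared with its neighbours Fuom, Paox and Prap1. Region 2 of the window, counted from low to high coordinate, spans chr7:140115512-140117684 and holds the Echs1 start and part of Paox. It covered 2173, 1602 and 2039 bp in edKO hearts and 1802, 1874 and 1702 bp in WT hearts, in the same order of hearts. Its width gave a log2 difference of 0.16 (SE 0.10). Region 1 lies in Fuom and region 4 in Paox, with log2 differences of -0.20 (SE 0.15) and 0.31 (SE 0.20) in width. None of the 3 passed the limma test, each with an adjusted p of 0.951. Region 3 was called over 408 bp in edKO 6 alone. The Echs1 window thus showed no called difference at its start or in its flanks.

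Hadh, the dehydrogenase of the next step, lies at chr3:131233419-131272101 and held 9 regions, the most of the 6 genes. Its covered length was 7006, 5189 and 5916 bp in edKO hearts, against 8748, 9718 and 9296 bp in WT hearts. The genotypes did not overlap, with edKO hearts lower, and the log2 difference was -0.52 (SE 0.10), with a limma adjusted p of 0.186. The region at the start, at chr3:131270648-131273160, overlapped between the genotypes. It covered 2513, 1585 and 2139 bp in edKO hearts and 2210, 2205 and 2269 bp in WT hearts, a log2 difference of -0.04 (SE 0.12). Its highest summit stood 241 to 299 bp into the gene in edKO hearts and 292 to 312 bp in WT hearts, downstream of the promoter printed above. Region 5, which ends 4268 bp before the high-coordinate end of the gene, likewise gave a log2 difference of -0.02 (SE 0.14). Both of these small differences turn above 0 under some alternatives.

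The larger differences at Hadh lay deeper in the gene body. Region 1, at chr3:131245297-131248192, covered 1619, 877 and 947 bp in edKO hearts and 2375, 2687 and 2247 bp in WT hearts. The genotypes did not overlap, and the log2 difference in width was -0.94 (SE 0.15), with a limma adjusted p of 0.158. It made up 40.1% of the difference between the mean lengths of the locus. Region 2, at chr3:131250738-131252297, was called in no edKO heart and over 596, 1289 and 750 bp in WT hearts, and made up another 27.3%. Its fold was ranked as the share of regions in the same list with no higher fold. It stood at the 3.28 percentile in WT 1, 45.4 in WT 3 and 52.5 in WT 4. Region 4 was called over 357 bp in edKO 6, against 770 bp in WT 1 and 322 bp in WT 4. Regions 3, 6, 7 and 8 were each called in a single WT heart, over 520 bp or less.

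Acaa2, the thiolase, lies on chromosome 18 at 74779212-74806207. Its covered length was 6459, 4619 and 5823 bp in edKO hearts, against 8271, 7817 and 8637 bp in WT hearts. The genotypes did not overlap, and the log2 difference was -0.46 (SE 0.11), with a limma adjusted p of 0.291. The region over its low-coordinate end, at 74777228-74782392, covered 4657, 3874 and 4414 bp in edKO hearts and 4919, 4722 and 5040 bp in WT hearts. Those widths did not overlap, but the log2 difference was -0.11 (SE 0.10), with a limma adjusted p of 0.953. Region 3, inside the gene, gave -0.43 (SE 0.27). Region 2 was called over 285 bp in edKO 6 alone.

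The region with a called difference in width was region 4, at 74809214-74812059 on chromosome 18, which begins 3007 bp beyond the high-coordinate end of Acaa2. It covered 1046, 480 and 574 bp in edKO hearts, against 2665, 2409 and 2605 bp in WT hearts. Every edKO heart had a narrower region than any WT heart, and the log2 difference in width was -1.60 (SE 0.18), with a limma adjusted p of 0.0476. The fit of region widths was chosen after the regions had been seen and was not a planned test. Of 28396 regions called in all 6 hearts, limma called 12 narrower, or 0.0423%. At the members, 1 of the 12 regions called in all 6 hearts was called narrower, this one. It made up 71.3% of the difference between the mean lengths of the locus. Its highest summits lay within 139 bp of each other over the 6 hearts. The nearest other gene, Myo5b, is 36516 bp away. The call did not hold with limma when 1 heart was left out, at an adjusted p of 0.193 without edKO 3, 0.0899 without edKO 6, 0.242 without WT 1, 0.233 without WT 3 and 0.287 without WT 4, and held at 0.0441 without edKO 1. It was also lost in limma with a pseudocount of 50 bp (adjusted p 0.0626), without centring (0.213), without the trended robust prior (0.113) and with the Xist locus as a covariate (0.143).

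The isomerases come next. Eci1 lies at chr17:24426683-24439316, and 1 region, at chr17:24425895-24431167, held all its covered length and 1 end of the neighbour Rnps1. The locus had 4977, 3547 and 4283 bp in edKO hearts, against 4801, 5193 and 5229 bp in WT hearts. The highest edKO value lay within the WT range, and the log2 difference was -0.16 (SE 0.11), with a limma adjusted p of 0.854. The highest summit lay 168 to 189 bp after the start in all 3 edKO hearts and 184 bp after it in WT 3, but 3149 and 3157 bp after it in WT 1 and WT 4. Several summits stood in the region in every heart, 3 to 6 in edKO hearts and 4 to 7 in WT hearts.

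Eci2, found in mitochondria and peroxisomes, has a gene body of chr13:34977748-35027115 in the gene table. The start of the promoter printed above lies inside that body, at 34994144 on the minus strand. Covered length was 1868, 1434 and 1558 bp in edKO hearts, against 2664, 2926 and 3204 bp in WT hearts. The genotypes did not overlap, with means of 1620 ± 224 bp in edKO hearts and 2931 ± 270 bp in WT hearts (SD, n = 3 each). The log2 difference was -0.70 (SE 0.14), with a limma adjusted p of 0.175. Region 1, at chr13:34993064-34995695 over the start, covered 1868, 1434 and 1558 bp in edKO hearts and 2117, 2563 and 2567 bp in WT hearts. Those widths did not overlap, but the log2 difference in width was -0.46 (SE 0.13), with a limma adjusted p of 0.712. The highest summit kept within 31 bp over the 6 hearts, 221 to 231 bp after the start in edKO hearts and 228 to 252 bp after it in WT hearts. The narrower edKO regions thus had their summit at the same place. Region 2, at chr13:35026570-35027206 over the high-coordinate end of the gene body, was called in no edKO heart and over 547, 363 and 637 bp in WT hearts. Its summits lay at -32776 to -32820 bp from the start, on the upstream side of this minus-strand gene. The fold of region 2 ranked between the 36.0 and the 56.9 percentile in the WT lists.

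Decr1, the reductase, lies at chr4:15917240-15945377. Its covered length was 1488, 1135 and 1292 bp in edKO hearts 1, 3 and 6, against 3064, 3578 and 3857 bp in WT hearts 1, 3 and 4. The genotypes were far apart, with the lowest WT heart above the highest edKO heart by more than the spread within either group. The log2 difference was -1.21 (SE 0.14), with a limma adjusted p of 0.0391. The call did not hold in limma when any 1 heart was left out, at an adjusted p of 0.124 without edKO 1, 0.140 without edKO 3, 0.109 without edKO 6, 0.0783 without WT 1, 0.177 without WT 3 and 0.139 without WT 4. It was also lost in limma with 25 kb flanks, where the log2 difference was -0.71 (adjusted p 0.130), with each region given to its nearest gene alone (0.0731), with stricter lists (0.0892), with lists of equal length (0.0716) and with the Xist locus as a covariate (0.0706).

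Most of the difference at Decr1 came from 1 region inside the gene. Region 2, at chr4:15937555-15939394, was called in no edKO heart and over 1396, 1755 and 1756 bp in WT hearts 1, 3 and 4. It was a well-ranked region in the WT lists, with a fold between the 72.0 and the 75.5 percentile, and its highest summits lay within 161 bp of each other. The median summit stood 6784 bp from the high-coordinate end of Decr1, and the nearest other gene, Nbn, was 18193 bp away. This region made up 74.5% of the difference between the mean lengths of the locus. Region 3, at chr4:15943986-15946086 over the high-coordinate end, covered 1488, 1135 and 1292 bp in edKO hearts and 1668, 1554 and 2101 bp in WT hearts. Those widths did not overlap, but the log2 difference was -0.32 (SE 0.17), with a limma adjusted p of 0.951. Region 1 was called over 269 bp in WT 3 alone. Before centring, widths also did not overlap at region 1 of Hadh, region 1 of Eci2 and regions 1 and 4 of Acaa2. No share over all regions is given for such separation, so it is a description.

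**Figure D2:**
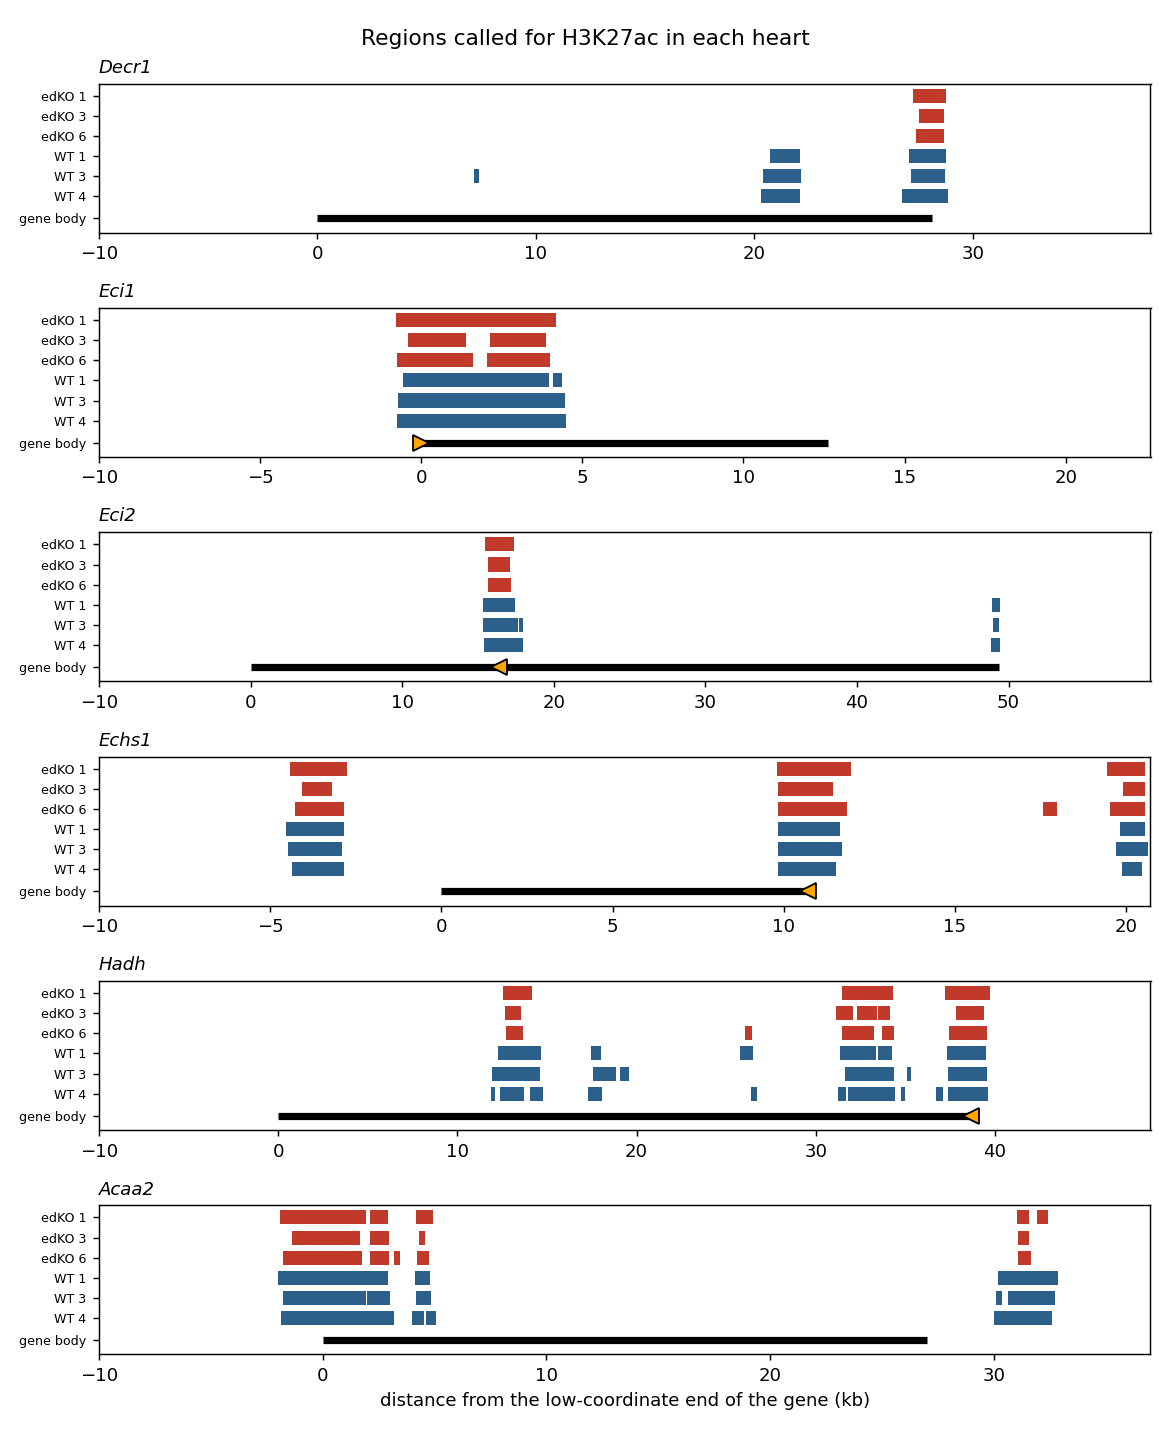
Regions called for H3K27ac in each heart (bars, 3 edKO rows above 3 WT rows) along each gene window, with distance from the low-coordinate end of the gene in kb and an arrow at the RefSeq start where the promoter table gave one. Decr1, Eci2 and Hadh each show 1 region in all 3 WT rows and no edKO row, and the last region of Acaa2 is narrower in the edKO rows.

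Over the 23 regions, 9 were called in more WT hearts than edKO hearts, 2 in more edKO hearts than WT hearts and 12 in as many of each. Of all 79241 regions, 36.1% were called in more WT hearts and 18.1% in more edKO hearts, so the 9 are near the background. Among the 9, 5 were called in a single WT heart, a pattern of 19.8% of all regions. The 12 were called in all 6 hearts, as were 35.8% of all regions. Called in all 3 WT hearts and no edKO heart were 3 of the 23, 1 each at Decr1, Eci2 and Hadh, beside 853 of the 79241 regions, or 1.08%. The reverse pattern was found at 0 of the 23 regions and at 56 of all regions, or 0.0707%. With lists of equal length, the WT-restricted regions numbered 309 in all and 2 at the members, and the edKO-restricted ones 214 in all and 0 at the members. The other 8 regions comprised 7 called in 1 heart only and 1 called in 1 edKO and 2 WT hearts. Summed over the 6 windows, 12, 12 and 15 regions were called in edKO hearts 1, 3 and 6, against 16, 18 and 18 in WT hearts 1, 3 and 4. The lists of edKO 6 and WT 4 were the longest of the 6, with 67706 and 66325 regions.

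Each locus was then split into the 2 kb around both gene ends and the remaining length. At the ends, limma called 0 of the 5 members tested, while 12 of 11920 loci, or 0.101%, were lower. The log2 difference at the ends was -0.36 (SE 0.14) at Decr1, -0.19 (SE 0.10) at Eci1, 0.12 (SE 0.08) at Echs1, -0.16 (SE 0.13) at Hadh and -0.12 (SE 0.08) at Acaa2. The signs at Echs1 and Acaa2 turned with the size of the window, to -0.02 with 5 kb and 0.02 with 1 kb. With 5 kb windows the ends of Acaa2, which then reach its region 4, gave -0.394 (SE 0.095, limma adjusted p 0.477). The split at Acaa2 thus depends on the size of the window. The ends of Eci2 averaged under 500 bp and were not tested, with 0 bp in every edKO heart and 547, 363 and 637 bp in WT hearts. Because the Eci2 start lies inside the gene body, its promoter region counts here among the remaining length.

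Away from the ends, 0 of the 6 members passed, while 13 of 10099 loci, or 0.129%, were lower. Decr1 had 0 bp there in every edKO heart and 1396, 2024 and 1756 bp in WT hearts, at a limma adjusted p of 0.0756, so no fold is given. It did pass limma with 1 kb end windows (adjusted p 0.0359) and with the replicate number as a block (adjusted p 0.0226). That block rests the difference on hearts 1 and 3 of each genotype. Hadh had 4493, 3604 and 3777 bp in edKO hearts and 6538, 7513 and 6639 bp in WT hearts, a log2 difference of -0.65 (SE 0.13) with a limma adjusted p of 0.201. Acaa2 had 2619, 1591 and 2297 bp in edKO hearts and 4287, 4116 and 4778 bp in WT hearts, a log2 difference of -0.85 (SE 0.15) with a limma adjusted p of 0.142. Eci1, Eci2 and Echs1 gave log2 differences of -0.14, -0.40 and 0.11. Lengths away from the ends were also compared before centring. Those of all edKO hearts were below those of all WT hearts at 5 of the 6 members, all but Echs1. The same held at 846 of the 10099 loci, or 8.38%. At Eci1 the gap was narrow, with 2189 bp in edKO 1 against 2249 bp in WT 1.

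The difference away from the ends was also set against that at the ends in 1 test. With limma 12 of 14317 loci, or 0.0838%, had a lower value in edKO hearts away from the ends relative to the ends, and 2 a higher one. Decr1 was 1 of the 12, at an adjusted p of 0.0371, with no size given since its edKO hearts are at 0 bp away from the ends. The call was lost in limma when any 1 heart was left out, at an adjusted p of 0.169 without edKO 1, 0.188 without edKO 3, 0.103 without edKO 6, 0.150 without WT 1, 0.199 without WT 3 and 0.111 without WT 4. The values were -0.83 (SE 0.16) at Acaa2 and -0.59 (SE 0.18) at Hadh, with limma adjusted p of 0.287 and 0.748. Eci2 lay in the other direction (limma adjusted p 0.254), with its promoter region counted as remaining length and its gene ends at 0 bp in edKO hearts.

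**Figure D3:**
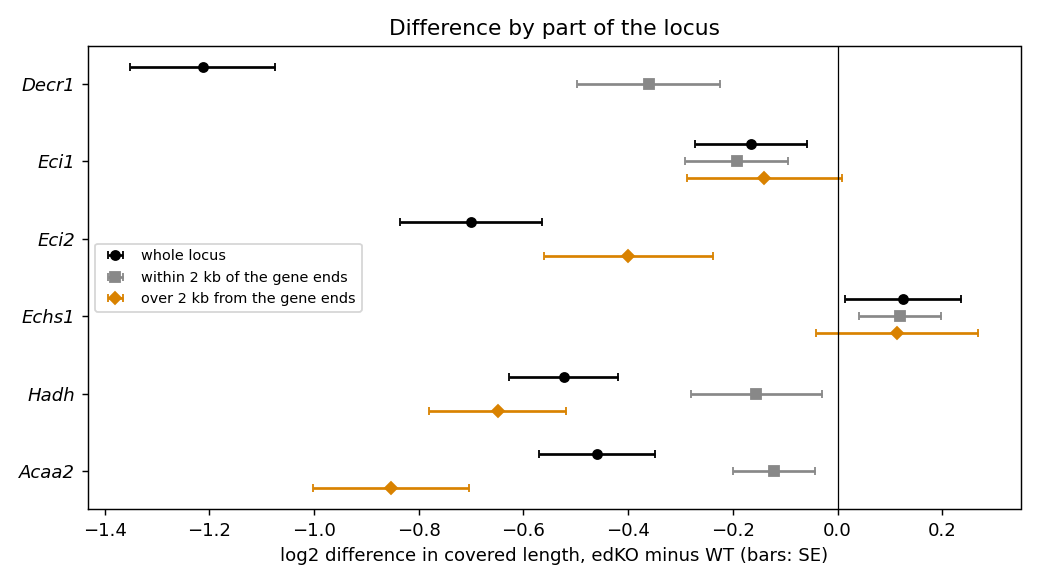
Log2 difference in covered length, edKO minus WT (x axis, bars are SE), for the 6 genes down the page, for the whole locus, the 2 kb around the gene ends and the remaining length. At Hadh and Acaa2 the remaining length lies further below 0 than the ends. No remaining length is drawn for Decr1, at 0 bp in every edKO heart, and no ends for Eci2, which were not tested.

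The rank of a region's fold among the regions of its own list gives a second reading beside width. The reading takes the highest fold of any summit in a region, so a wider region with more summits offers more values. The fold values are the authors' own, and since the lists differ in length these percentiles describe each list and show no change by themselves. The region at the high-coordinate end of Decr1 ranked between the 80.5 and 86.6 percentile in edKO lists and between 91.2 and 93.2 in WT lists. The Eci2 start region ranked between 82.0 and 91.2 in edKO lists and between 94.5 and 97.5 in WT lists. Neither of these 2 regions passed the test on width, nor did regions 1 and 5 of Hadh below. Region 1 of Hadh ranked between 34.3 and 77.6 in edKO lists and between 86.1 and 89.5 in WT lists. Region 4 of Acaa2 ranked between 41.7 and 60.9 in edKO lists and between 83.8 and 89.6 in WT lists. Region 5 of Hadh, whose widths overlapped, ranked between 63.9 and 73.6 in edKO lists and between 74.0 and 79.8 in WT lists. These are the 5 of the 12 regions called in all 6 hearts that ranked lower in every edKO list than in any WT list. Of all 28396 such regions, 2645, or 9.31%, did so, and 310 ranked higher in every edKO list than in any WT list. Such gaps thus leaned towards lower edKO ranks over all regions as well. The start regions of Eci1, Echs1 and Hadh overlapped between the genotypes, from 84.6 to 96.9 in edKO lists and from 88.8 to 96.6 in WT lists. So did the low-coordinate end of Acaa2, at 93.0 to 97.7 in edKO lists and 96.0 to 96.8 in WT lists.

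**Figure D4:**
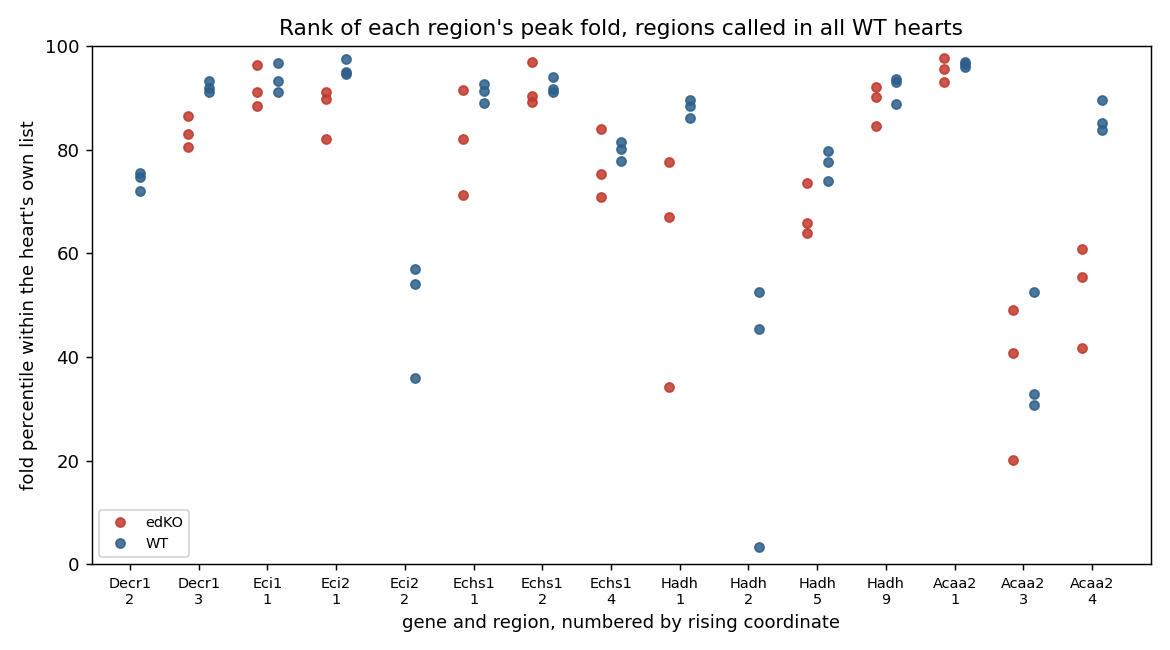
Percentile of each region's peak fold within the list of the same heart (y axis), for the regions called in all 3 WT hearts, by gene and region number (x axis), with edKO points left of WT points. Region 4 of Acaa2 and region 1 of Hadh show the widest gaps between the genotypes, and regions called in no edKO heart have WT points alone.

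Other genes of the pathway were read from lists chosen by name, likewise with earlier results of these data known. Of 17 genes of the other later and auxiliary steps, 15 could be tested, and 8 had a log2 difference below 0, with a median of -0.04 beside 0.03 over all loci. Limma called 1 of them lower and 0 higher, Hadha, the alpha subunit of the trifunctional protein, at -1.34 (SE 0.14) and an adjusted p of 0.0308. The next by p were Hadhb, the beta subunit, at -0.97 (limma adjusted p 0.102), and Acat1, the mitochondrial acetoacetyl-CoA thiolase, at -0.73 (0.155). Of 22 genes of activation, import and the first step, 21 could be tested and 16 were below 0, with a median of -0.25. Limma called 1 lower and 0 higher, Acsl1, an acyl-CoA synthetase, at -1.06 (SE 0.11) and an adjusted p of 0.0308. The next were Cpt2, the inner carnitine palmitoyltransferase, at -1.13 (limma adjusted p 0.179), and the carnitine transporter gene Slc22a5, at -0.69 (0.282). Of 14 regulators of the pathway, 13 could be tested, 10 were below 0, and the median was -0.02. None passed limma in either direction, and the smallest p values belonged to the corepressor gene Nrip1, at -0.45 (adjusted p 0.197), and the coactivator gene Ppargc1b, at -0.29 (adjusted p 0.582).

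**Figure D5:**
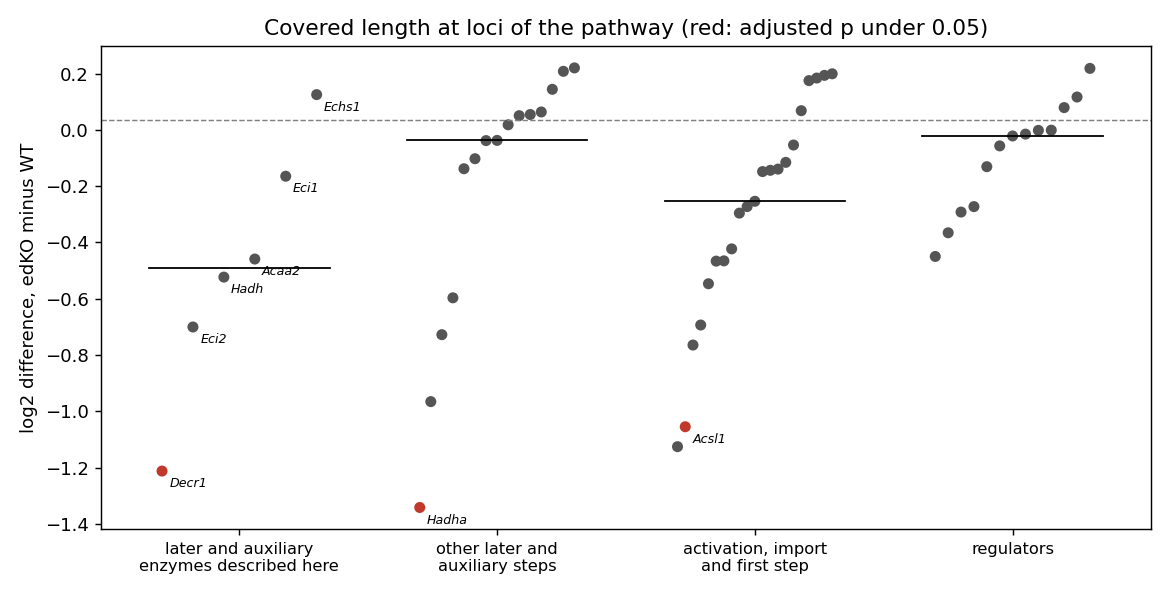
Log2 difference in covered length, edKO minus WT (y axis), with 1 point per tested locus for the 6 enzymes and 3 other lists of the pathway, solid lines at each list's median, and a dashed line at the median of all loci. The points past the threshold (red) are Decr1, Hadha and Acsl1, and the 6 enzymes have a median of -0.49.

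For each enzyme, the nearest profiles over the 6 hearts were found among tested loci whose windows did not overlap its own. Nearness was the root mean square difference of centred log2 values after each locus's own mean was subtracted. The measure thus compares the pattern over hearts and not the marked length. Nearest to Decr1 were Oscar (0.117) and Hadha (0.122). Oscar had 1299, 777 and 925 bp in edKO hearts, against 2591, 3016 and 3490 bp in WT hearts. Nearest to Acaa2 were Cpt1b (0.046), the carnitine palmitoyltransferase of heart and muscle, and Pde1c (0.064). Cpt1b had 6135, 4022 and 5220 bp in edKO hearts, against 7310, 7410 and 7784 bp in WT hearts. Nearest to Hadh were Cdk1 (0.042) and Ywhag (0.058), to Eci2 Rbfox1 (0.064) and Ucp3 (0.082), to Eci1 Pcdhgc5 (0.022) and Mapkap1 (0.023), and to Echs1 Mylk (0.024) and Atpif1 (0.028). These are descriptions over 6 hearts that share their lists.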

How the data were processed

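H3K27ac was profiled in 6 individual hearts, which the labels call biological replicates. The submitters' processing notes name cutadapt, BWA, SAMtools, MACS2, mm10 and GRCm38. The sources used here give neither MACS2 settings nor its use of the 6 inputs, and the inputs were not used. The authors deposited 1 list of peaks per heart, with start, end and summit in mm10, a fold enrichment (a ratio), and −log10 p-values and −log10 q-values. Every list's smallest −log10 q lies near a q of 0.05. Read depth per heart is unknown, since the labels give only an average, so no counting interval is given. A region not called is not one without the mark. Deposited folds were ranked only within a list.

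Entries were merged into regions, and regions of the 6 lists into a union at 1 bp overlap. Gene positions and promoters came from RefSeq GRCm38.p6, without exons. Covered length was tested as log2(bp + 200), centred per heart on loci covered in all hearts, where the mean was 500 bp or more, in R 4.3.3 with the package limma 3.58.1 (trended, robust empirical Bayes) and Benjamini-Hochberg adjustment at 0.05. Lengths at gene ends (2 kb), away from them, and their contrast were fitted likewise. The fit of region widths was chosen after the regions had been seen. Scripts used Python 3.11.15, and the fit was tested on simulated data. Named genes are the 6 enzymes, called genes of the other lists with the 2 next smallest p, neighbours within 10 kb, and 2 nearest profiles per enzyme. Members and lists were chosen with earlier results of these data known. Some marker genes are not reported here.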

Additional observations from a re-analysis of the deposited data

How the results depend on the processing

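Over 21 alternatives, the log2 difference in covered length kept its sign at each of the 6 loci, and the 5 loci without a call stayed without one. At Decr1 it ranged from -1.64 to -0.71, with a limma adjusted p of 0.0284 to 0.177, and the call was lost in 11 of the 21. The width of region 4 of Acaa2 ranged from -1.79 to -1.04 (adjusted p 0.0259 to 0.287, limma), lost in 9 of 13. The Decr1 contrast of remaining length against ends had a limma adjusted p of 0.0179 to 0.319, and its call was lost in 7 of 9. Decr1 away from the ends passed limma with 1 kb end windows (adjusted p 0.0359) and with the replicate block (0.0226).

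Replicate numbers 1 and 3 occur in both genotypes, but the labels do not say that they mark a litter or day. Deviations of same-numbered hearts correlated at 0.179 and 0.032, and those of differently numbered hearts at -0.244 to 0.143. With the replicate block, limma called 90 loci lower, 275 lower and 38 higher at the ends, 213 lower and 6 higher away from them, 0 lower and 0 higher in their contrast, and 36 region widths lower. The block takes up edKO 6 and WT 4, whose numbers occur in 1 genotype alone. Its genotype difference thus rests on hearts 1 and 3 of each genotype. With it, Decr1 stayed called at -1.05 (limma adjusted p 0.0418), while its contrast was lost (limma adjusted p 0.319). Under the block, regions 5 and 9 of Hadh turned to 0.16 and 0.02.

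Counts of loci called lower moved to 6 with each region given to its nearest gene (with 2 higher), 9 with stricter lists, 6 with lists of equal length and 3 with the Xist covariate. With 1 kb windows 0 loci were lower at the ends, 23 away from them and 19 (with 4 higher) in the contrast; with 5 kb windows 5 were lower away from the ends. Region widths called lower were 7 without centring, 2 without the trended robust prior and 1 with the Xist covariate. Regions in all WT and no edKO hearts numbered 513 with stricter lists and 309 with equal lengths, with 2 at the members under each, and the reverse pattern numbered 214 with equal lengths. With 1 heart left out, loci called lower ranged from 0 to 9 and higher from 0 to 1, lower at the ends from 0 to 4, away from them from 0 to 13, in the contrast from 0 to 4 (higher 0 to 1), and region widths from 1 to 7. WT-restricted regions then ranged from 1001 to 2153 and edKO-restricted ones from 112 to 520, with 3 and 0 at the members throughout. A region restricted over all hearts stays restricted when 1 is left out, so these counts could not fall and do not test stability.

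Signs turned at 6 results whose reported values were at most 0.12 in size. The ends of Echs1 turned to -0.022 with 5 kb windows and those of Acaa2 to 0.023 with 1 kb. The contrast of Eci1 turned to 0.25 with 5 kb windows, and ranged from -0.137 to 0.019 with 1 heart left out. That of Echs1 turned to 0.047 with 1 kb and 0.452 with 5 kb, and ranged from -0.214 to 0.05 with 1 heart left out. The width of Hadh region 5 then ranged from -0.139 to 0.091 and of region 9 from -0.089 to 0.036. The cause was not tested in any of these. Region widths were not refitted on stricter or equal-length lists, whose regions differ. Depth per heart, which bears on what is called, is unknown, and 3 hearts a group limit every test.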
